A study of Mus musculus with 6 samples.

Results

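The genes described here are 27 genes of cholesterol synthesis and of its control by the transcription factor SREBP2, taken from a fixed list of symbols, out of 35082 genes measured in mouse liver. Of these, 26 had enough reads to be tested, among 12497 tested genes in all. The exception was Idi1, the isomerase of the isoprenoid units, with 11, 0 and 0 estimated counts in control mice and 36, 4 and 1 in the other group. Liver RNA came from 6 male mice that were 8 weeks old when a high-fat diet began and that stayed on it for 20 weeks. The 3 control mice carried floxed G3BP1 alleles without Cre (G3BP1f/f), and the 3 others carried the same alleles with Alb-cre (Alb-cre; G3BP1f/f), in which the albumin promoter drives Cre recombinase in hepatocytes. Both groups received the same diet, and no group on another diet was compared here. The design text counts the 3 mice of each group as biological replicates, and the p-values measure the spread between these animals. G3bp1 encodes a stress granule protein and its transcript did not separate the groups: it measured 44.1, 34.8 and 40.5 CPM (counts scaled to library size with TMM factors) in controls and 44.0, 30.0 and 31.5 CPM in mice with Cre, in the order of their replicate numbers 1 to 3, as below, with a log2 difference of -0.18 (SE 0.22, edgeR adjusted p = 0.909). The groups are therefore called control and knockout-labelled here. The sample titles call the first group wild-type and the second a liver-specific conditional knockout of G3BP1. Which exons Cre removes is not stated in the labels, so the transcript level alone does not test the deletion.

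Cholesterol is built from acetyl-CoA through mevalonate, the isoprenoid diphosphates, squalene and lanosterol, and the hepatocyte is a main site of this synthesis. SREBP2, encoded by Srebf2, switches on nearly every enzyme of the route. It is held in the endoplasmic reticulum by SCAP and the retention proteins INSIG1 and INSIG2 when sterols are plentiful, and is carried to the Golgi and cut to its active form when they are scarce. Because of this shared control the enzymes usually move together, and Insig1, itself a target, usually moves with them, whereas Insig2 is not driven by nuclear SREBP in the same way.

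None of the 26 sterol genes passed the test between the groups. This count stood against 0% of all tested genes with an edgeR adjusted p under 0.05, and 4.55% with an unadjusted p under 0.05, where Insig2 was the 1 sterol gene. The log2 difference, knockout-labelled minus control, was above 0 for 10 sterol genes and below 0 for 16, against 51.6% and 48.4% of all tested genes. Their median was -0.09, beside 0.01 over all tested genes. The groups did not overlap for 2 sterol genes, Insig2 and Ggps1, both higher in the knockout-labelled mice, against 9.34% of all tested genes (4.79% higher and 4.55% lower). Most enzymes of the route were instead high in the same mice and low in the same mice, and both groups held mice of either kind.

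Promoter sequence was available for 22 of the 27 genes, in windows of 300 bases from 250 before to 50 after the start, from RefSeq on GRCm38.p6. The letters TCACNCCAC, a form of the sterol regulatory element, were searched on both strands and stood in 1 of the 22, Hmgcs1, against 1.24% of 32851 promoters and 1.44% of 27025 genes. CCAAT, the letters of the NF-Y box that often lies beside such elements, stood on one strand or the other in 20 of the 22, leaving out Scap and Acat2, against 37.4% of promoters and 41.1% of genes. A gene was counted if any of its windows matched, whether or not that start was the one most used here. Insig2 matched at its upstream start alone. Pmvk matched at the start of Pmvk-204, whereas Pmvk-201, its most abundant transcript, starts elsewhere. The motifs shared no bases in the windows shown. A match is a description of letters and not of binding. A set of 3 stretches of 250 bases before a start is printed: the classical SREBP2 target Hmgcs1, with both motifs, and both starts of Insig2, the sterol gene with the smallest p. Capitals mark the matches to either motif, on either strand, and the sequences run 5′ to 3′ on the strand of the gene.
Hmgcs1, chr13:119690101-119690350, plus strand: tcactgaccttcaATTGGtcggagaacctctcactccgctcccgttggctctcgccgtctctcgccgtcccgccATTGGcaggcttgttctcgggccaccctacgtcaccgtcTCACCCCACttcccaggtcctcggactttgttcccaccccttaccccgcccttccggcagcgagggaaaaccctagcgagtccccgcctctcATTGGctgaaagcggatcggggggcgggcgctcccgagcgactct
Insig2 upstream start, chr1:121332590-121332839, minus strand: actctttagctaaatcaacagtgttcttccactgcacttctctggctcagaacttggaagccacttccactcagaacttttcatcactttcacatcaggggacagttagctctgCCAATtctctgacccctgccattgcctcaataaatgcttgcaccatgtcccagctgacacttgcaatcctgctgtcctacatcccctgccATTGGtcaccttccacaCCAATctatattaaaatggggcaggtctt
Insig2 downstream start, chr1:121328025-121328274, minus strand: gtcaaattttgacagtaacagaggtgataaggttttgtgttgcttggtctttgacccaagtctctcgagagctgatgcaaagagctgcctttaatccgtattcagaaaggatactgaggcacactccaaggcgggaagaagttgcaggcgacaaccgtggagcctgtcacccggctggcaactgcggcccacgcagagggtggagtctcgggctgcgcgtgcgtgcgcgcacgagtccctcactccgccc
The Hmgcs1 stretch held 1 sterol element, 137 to 129 bases before the start, and 3 CCAAT matches, of which the nearest to the start lay 45 to 41 bases before it. The upstream Insig2 stretch held no sterol element and 3 CCAAT matches, and the downstream stretch neither. The downstream stretch was also richer in G and C (56.8% against 47.2%), and 183 of its bases overlap annotated exons, counted without regard to strand. The upstream and downstream starts of Insig2 lie 4565 bases apart.

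Insig2 (ENSMUSG00000003721; chromosome 1, 121304353 to 121332589, minus strand, GRCm38) encodes an endoplasmic reticulum protein that retains the SCAP and SREBP complex. It measured 114, 160 and 145 CPM in controls and 229, 257 and 236 CPM in knockout-labelled mice. Each knockout-labelled mouse lay above each control, and the gap between the groups was wider than the spread inside either. The means were 140 ± 23.0 and 241 ± 14.4 CPM (SD, n = 3 each), a 1.73-fold difference with a 95% interval from 1.23 to 2.42. On the log2 scale the difference was 0.79 (SE 0.21, 95% interval 0.30 to 1.28), with an edgeR adjusted p of 0.845 and an unadjusted p of 0.006 from the same fit. It ranked number 36 of the 12497 tested genes by p, so the difference did not pass the threshold over the whole table. It was above 0 in each of 20 other settings, from 0.66 to 1.05, with adjusted p-values from 0.146 to 1.00. With each mouse left out in turn it ran from 0.66 to 0.89.

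The counts of Insig2 lay almost wholly on transcripts that begin at the downstream start, 8 annotated transcripts within 500 bases of it. They held 99.7%, 92.5% and 97.0% of the gene's counts in controls and 98.4%, 90.3% and 89.3% in knockout-labelled mice, with 2144, 2694 and 2951 against 5234, 5241 and 5031 estimated counts. The separation of the groups was thus present in the counts of the downstream start. The 2 upstream transcripts took 0.12%, 6.79% and 2.58% in controls and 1.46%, 8.72% and 9.94% in knockout-labelled mice, and these ranges overlapped. The leading transcript, Insig2-201, had a log2 difference of 0.82 (SE 0.22, edgeR adjusted p = 0.999 over 22297 tested transcripts). Of 47 tested transcripts of sterol genes none passed, as for the 22297 as a whole, of which 625 had an unadjusted p under 0.05.

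**Figure D1:**
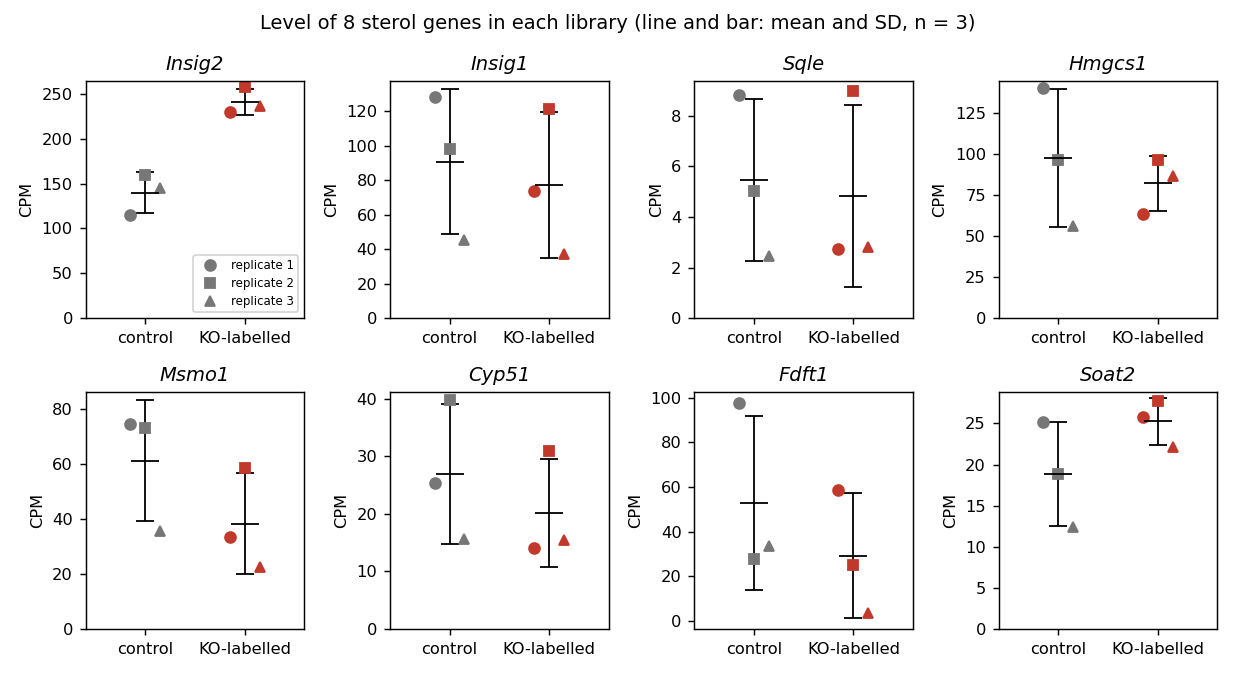
CPM of 8 sterol genes in each mouse (points, shaped by replicate number; line and bar, mean and SD, n = 3 per group), in control and knockout-labelled (KO-labelled) liver. The Insig2 points of the groups do not overlap, from 114 to 160 CPM against 229 to 257 CPM, whereas those of the other 7 genes shown do.

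The other retention protein and the SREBP2 module did not share this pattern. Insig1 (chromosome 5, 28071363 to 28078662, plus strand) measured 128, 98.3 and 45.3 CPM in controls and 73.8, 121 and 37.1 CPM in knockout-labelled mice. Both groups spanned nearly the same range, with a log2 difference of -0.23 (SE 0.48, 95% interval -1.32 to 0.87, edgeR adjusted p = 0.946). The highest mouse exceeded the lowest 2.84-fold in controls and 3.27-fold in knockout-labelled mice. Srebf2, the factor itself, measured 24.5, 14.7 and 12.9 CPM in controls and 14.7, 23.9 and 18.9 CPM in knockout-labelled mice (log2 difference 0.14, SE 0.29, 95% interval -0.53 to 0.81, edgeR adjusted p = 0.946). Scap, the escort protein, measured 55.8, 44.1 and 22.3 against 44.1, 43.1 and 49.7 CPM (log2 difference 0.16, edgeR adjusted p = 0.942). For both, the control range enclosed the other group.

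Insig2-201 and Insig1-201 both have 2697 bases, so their counts can be set against each other within a mouse. The ratio of Insig2-201 to Insig1-201 counts was 0.74, 1.39 and 2.92 in controls and 2.64, 1.94 and 5.75 in knockout-labelled mice. The mean was 1.68 ± 1.12 against 3.44 ± 2.03 (SD, n = 3 each), and the groups overlapped. An exact two-sided permutation test of the log2 ratio gave p = 0.3, where 0.1 is the smallest p that 3 against 3 mice allow. The ratio was highest within its group in control mouse 3 and knockout-labelled mouse 3, the mice in which Insig1, its denominator, was lowest within its group.

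The mevalonate arm, from acetyl-CoA to the prenyl diphosphates, had 7 of its 8 genes tested, with 2 above 0 and 5 below, and a median log2 difference of -0.11. Hmgcs1 (chromosome 13, 119690379 to 119708260, plus strand) makes HMG-CoA. It measured 140, 96.4 and 56.0 CPM in controls and 63.7, 96.5 and 86.4 CPM in knockout-labelled mice. The knockout-labelled mice lay inside the control range, with means of 97.5 ± 42.1 and 82.2 ± 16.8 CPM (SD, n = 3 each) and a log2 difference of -0.25 (SE 0.34, 95% interval -1.02 to 0.52, edgeR adjusted p = 0.918). Acat2, the thiolase that opens the route, differed by -0.06, Mvk, the mevalonate kinase, by -0.22, Mvd, the decarboxylase, by -0.23, and Fdps, the farnesyl diphosphate synthase, by -0.11 on the log2 scale. Pmvk, the phosphomevalonate kinase, differed by 0.26. The edgeR adjusted p-values of these 5 ran from 0.909 to 0.967, and each had overlapping groups.

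Ggps1 (ENSMUSG00000021302; chromosome 13, 14050659 to 14063488, minus strand) makes geranylgeranyl diphosphate, a branch of the pathway that feeds protein prenylation and not sterols. It measured 6.02, 6.13 and 4.86 CPM in controls and 6.21, 7.48 and 8.84 CPM in knockout-labelled mice. The groups did not overlap, but the lowest knockout-labelled mouse lay just above the highest control. The means were 5.67 ± 0.70 and 7.51 ± 1.32 CPM (SD, n = 3 each), from 113, 112 and 102 counts against 144, 169 and 211 counts. The log2 difference was 0.41 (SE 0.24, 95% interval -0.13 to 0.95, edgeR adjusted p = 0.845). Exons of Ggps1 share 257 of 4721 bases with Arid4b on the opposite strand, and counting by strand is not stated.

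Squalene and lanosterol formation, with 3 genes, had 1 above 0 and 2 below. Fdft1 (ENSMUSG00000021273; chromosome 14, 63145150 to 63179578, minus strand), the squalene synthase, is the first step committed to sterols. It measured 97.9, 27.6 and 33.5 CPM in controls and 58.9, 25.3 and 3.52 CPM in knockout-labelled mice. Control mouse 1 stood far above the other controls and knockout-labelled mouse 3 far below every other mouse. The log2 difference of -0.86 was the lowest among the sterol genes and the other one besides Insig2 beyond 0.75 in size, against 6.41% of all tested genes, and its error was wide (SE 0.84, 95% interval -2.78 to 1.07, edgeR adjusted p = 0.883). It was -0.06 without control mouse 1, -0.33 without knockout-labelled mouse 3 and -1.88 without knockout-labelled mouse 1. Exons of Fdft1 share 774 of 4227 bases with those of Ctsb, a lysosomal protease gene on the opposite strand that measured 645, 583 and 779 CPM in controls and 750, 430 and 399 CPM in knockout-labelled mice. The part of this overlap in the Fdft1 values was not tested.

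Sqle, the squalene epoxidase and a rate-limiting step, measured 8.84, 5.04 and 2.48 CPM in controls and 2.72, 8.98 and 2.81 CPM in knockout-labelled mice. Each group held both high and low mice, with a 3.57-fold range in controls and a 3.30-fold range in knockout-labelled mice, and a log2 difference of -0.17 (SE 0.58, 95% interval -1.50 to 1.16, edgeR adjusted p = 0.967). Lss, the lanosterol synthase, measured 12.1, 9.09 and 4.34 against 5.26, 14.4 and 7.96 CPM (log2 difference 0.11, edgeR adjusted p = 0.970). Both genes were lowest in control mouse 3, next lowest in knockout-labelled mouse 1, and highest in knockout-labelled mouse 2. The Lss values are not those of coding mRNA alone. Lss-204, listed by GENCODE with a retained intron, held 48.1% to 95.4% of the gene's counts. The protein-coding Lss-201 had 0, 35.1 and 0 estimated counts in controls and 0, 68.8 and 45.0 in knockout-labelled mice.

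The 8 genes from lanosterol to cholesterol had 2 above 0 and 6 below, with a median of -0.10. Msmo1 (ENSMUSG00000031604; chromosome 8, 64718139 to 64733792, minus strand), the sterol methyl oxidase, measured 74.7, 73.2 and 35.8 CPM in controls and 33.5, 58.7 and 22.7 CPM in knockout-labelled mice. Its 2 lowest values were knockout-labelled and its 2 highest were controls, with an overlap in between. The means were 61.2 ± 22.0 and 38.3 ± 18.5 CPM (SD, n = 3 each) and the log2 difference was -0.68 (SE 0.40, 95% interval -1.59 to 0.23, edgeR adjusted p = 0.845). Cyp51 (chromosome 5, 4081145 to 4104746, minus strand), the lanosterol demethylase, measured 25.4, 39.8 and 15.7 CPM in controls and 14.1, 31.0 and 15.4 CPM in knockout-labelled mice. Its highest mouse was a control and its lowest 2 were knockout-labelled, and the groups overlapped, with means of 26.96 ± 12.1 and 20.2 ± 9.40 CPM (SD, n = 3 each) and a log2 difference of -0.42 (SE 0.40, 95% interval -1.34 to 0.50, edgeR adjusted p = 0.882).

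Ebp (chromosome X, 8185329 to 8193512, minus strand), the sterol isomerase, measured 163, 206 and 144 CPM in controls and 158, 153 and 117 CPM in knockout-labelled mice. The upper 2 mice were controls and the lowest was knockout-labelled, with means of 171 ± 31.9 and 142 ± 22.4 CPM (SD, n = 3 each) and a log2 difference of -0.27 (SE 0.23, 95% interval -0.79 to 0.26, edgeR adjusted p = 0.870). The reductases Tm7sf2 and Dhcr7 differed by -0.06 and 0.04, the dehydrogenase Nsdhl by 0.24, the ketosteroid reductase Hsd17b7 by -0.07 and the desaturase Sc5d by -0.13 on the log2 scale. Their edgeR adjusted p-values ran from 0.924 to 0.986 and their groups overlapped. Tm7sf2 shares 532 of 4403 exonic bases with Vps51 on the same strand, and Cyp51 shares 166 of 4415 with Akap9 on the opposite strand.

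**Figure D2:**
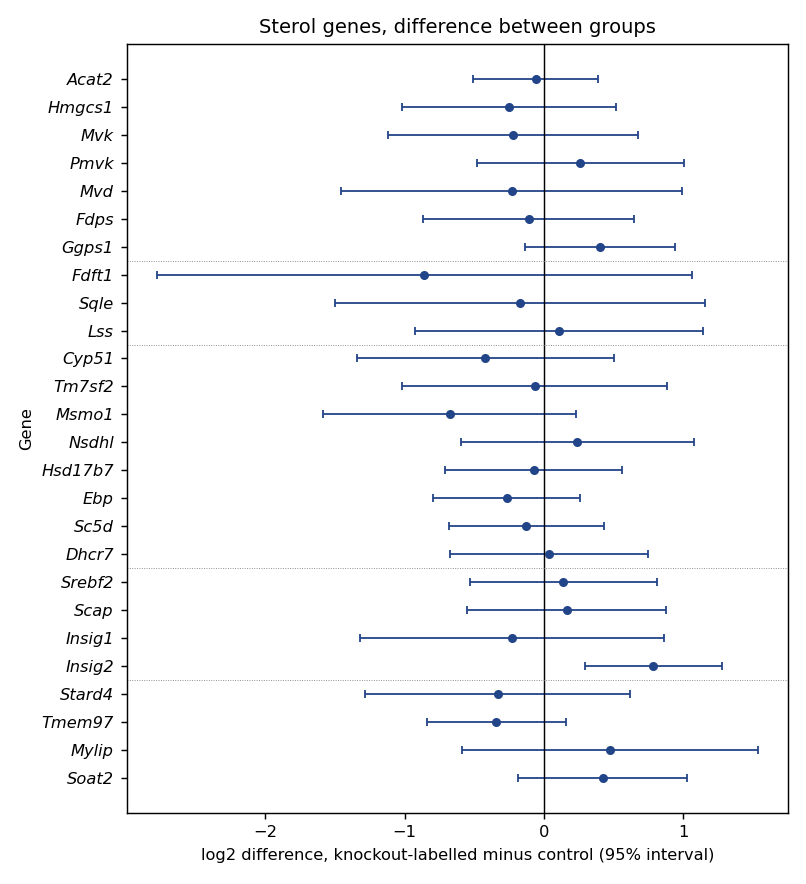
Fitted log2 difference of CPM, knockout-labelled minus control, for the 26 tested sterol genes grouped by their step (points), with 95% intervals (bars) and a line at 0. The interval of Insig2, 0.30 to 1.28, is the one that lies clear of 0, and that of Fdft1 is the widest, from -2.78 to 1.07.

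Genes of sterol handling had 2 above 0 and 2 below. Soat2, the hepatocyte enzyme that esterifies cholesterol (chromosome 15, 102150526 to 102163469, plus strand), measured 25.2, 18.9 and 12.4 CPM in controls and 25.8, 27.7 and 22.2 CPM in knockout-labelled mice. Control mouse 1 reached into the knockout-labelled range and the other controls lay below it, with means of 18.8 ± 6.37 and 25.2 ± 2.83 CPM (SD, n = 3 each) and a log2 difference of 0.42 (SE 0.27, 95% interval -0.19 to 1.03, edgeR adjusted p = 0.845). Mylip (chromosome 13, 45389742 to 45412022, plus strand), a ubiquitin ligase induced by LXR, measured 2.56, 5.59 and 8.34 CPM in controls and 4.19, 10.4 and 8.38 CPM in knockout-labelled mice. The groups overlapped over most of their range, with means of 5.49 ± 2.89 and 7.67 ± 3.19 CPM (SD, n = 3 each) and a log2 difference of 0.48 (SE 0.46, 95% interval -0.58 to 1.54, edgeR adjusted p = 0.883).

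Tmem97 (chromosome 11, 78541817 to 78550777, minus strand), a sterol-regulated membrane protein also known as the sigma-2 receptor, measured 42.6, 60.9 and 60.0 CPM in controls and 46.6, 46.2 and 36.2 CPM in knockout-labelled mice. Controls 2 and 3 lay above every knockout-labelled mouse, whereas control mouse 1 fell among them. The means were 54.5 ± 10.3 and 43.0 ± 5.91 CPM (SD, n = 3 each) and the log2 difference was -0.34 (SE 0.22, 95% interval -0.84 to 0.16, edgeR adjusted p = 0.845). Stard4, a carrier of cholesterol between membranes, measured 18.6, 32.4 and 15.0 against 11.0, 28.6 and 12.9 CPM (log2 difference -0.33, edgeR adjusted p = 0.909), with overlapping groups.

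The sterol genes varied widely between mice of the same group. The median range within a group, highest minus lowest log2 CPM, was 1.04 in controls and 0.999 in knockout-labelled mice, beside a median absolute group difference of 0.25. Over all tested genes the corresponding ranges were 0.62 and 0.56. For 25 of the 26 genes the larger of both within-group ranges exceeded the group difference, and Insig2 was the exception, but this share is near the background, since it held for 95.6% of all tested genes. The smaller range also exceeded it for 22 of the 26 genes, against 72.2% of all tested genes.

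The mice that were high or low were largely shared between genes. As a deviation from each gene's own mean over the 6 mice, the median of the 26 genes was 0.23, 0.17 and -0.37 log2 CPM in controls and -0.25, 0.42 and -0.27 in knockout-labelled mice. Each group thus held high and low mice: 2 high and 1 low among the controls, and 1 high and 2 low among the knockout-labelled. Above their own mean were 19, 18 and 4 of the 26 genes in controls and 8, 23 and 7 in knockout-labelled mice, where all tested genes gave 50.03% to 53.5%. Knockout-labelled mouse 2 held the highest value of 11 sterol genes and control mouse 3 the lowest of 11, against 14.7% and 16.8% of all tested genes. By step, the median deviation of the mevalonate arm was 0.08, 0.17 and -0.34 in controls and -0.13, 0.60 and -0.34 in knockout-labelled mice. For squalene and lanosterol it was 0.98, 0.16 and -0.82 against -0.62, 0.81 and -0.64, and from lanosterol to cholesterol 0.17, 0.41 and -0.38 against -0.37, 0.40 and -0.25. The same 3 mice stood above 0 and the same 3 below at each of these steps, but which mouse was highest or lowest differed between steps.

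**Figure D3:**
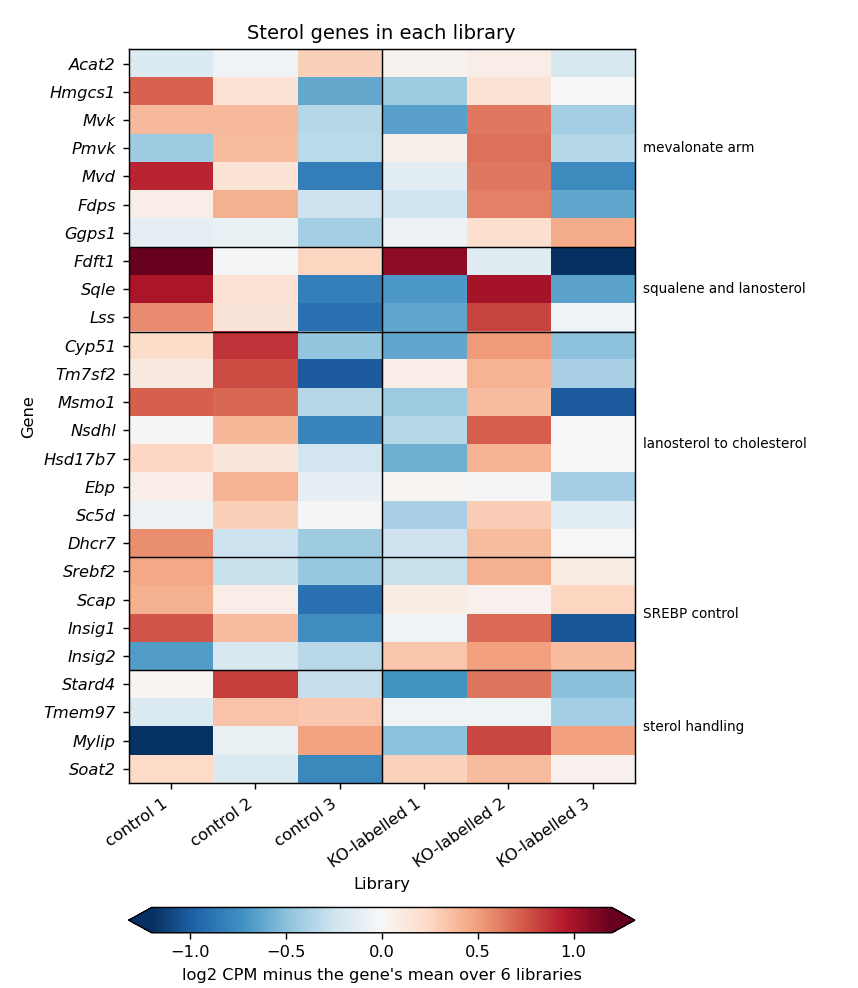
Deviation of log2 CPM from each gene's mean over 6 libraries, for 26 sterol genes (rows, grouped by step) in 6 mice (columns; KO-labelled, knockout-labelled), red above and blue below; the strongest colours include values beyond the scale. Control mouse 3 is mostly blue, with 4 of 26 genes above their mean, and knockout-labelled mouse 2 mostly red, with 23 of 26.

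The group median therefore moved with single mice. It was 0.11 without control mouse 1, -0.01 without control mouse 2 and -0.20 without control mouse 3. Without knockout-labelled mouse 1, 2 or 3 it was 0.02, -0.33 or 0.10. Genes above 0 numbered 6 of 26 without knockout-labelled mouse 2 and 17 of 26 without knockout-labelled mouse 3, and 15 without control mouse 1. Scaled by library totals alone, the count above 0 was 21 of 26, the median was 0.17, and the median of all tested genes shifted by 0.26. Relative to all genes the median of the sterol genes was -0.10 under both.

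Cell markers and library features also varied between the mice. Of 12 hepatocyte markers 6 lay above 0 and 6 below (median -0.06), with summed levels of 134329, 133531 and 158304 CPM in controls and 139679, 134965 and 83886.5 CPM in knockout-labelled mice. Knockout-labelled mouse 3 was the lowest, with 0 of the 12 markers above their own mean, and it was also among the low mice for sterol genes. Control mouse 3, the lowest for sterol genes, had the highest summed hepatocyte level. The 13 markers of Kupffer cells and other macrophages all had differences below 0 (median -0.62), with summed levels of 284, 440 and 923 CPM in controls and 411, 291 and 366 CPM in knockout-labelled mice. Control mouse 3, where sterol genes were lowest, had the highest macrophage level, with 13 of 13 markers above their own mean. Knockout-labelled mice 1 and 3, also low for sterol genes, had median macrophage deviations below 0 (-0.15 and -0.07). Mitochondrially encoded genes took 7.22% to 7.64% of counts in controls and 7.57%, 9.19% and 10.2% in knockout-labelled mice. Knockout-labelled mice 2 and 3 also had more transcripts above 0, 36.3% and 37.8% of those listed, against 30.2% to 31.2% in the other 4 mice. The same 2 mice had the lowest share of Msmo1-206 and the highest shares of the upstream Insig2 start. The part of cell makeup and library features in the sterol values was not tested, and in bulk liver fewer cells of a type and less RNA per cell cannot be told apart.

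Per length of transcript, in the deposited TPM, Ebp stood highest among the 27 genes in controls with 105 ± 8.39 TPM, followed by Insig2 with 63.5 ± 8.91 TPM (SD, n = 3 each), and both gaps, to Insig2 and below it, exceeded the SDs. Sc5d, Tmem97, Msmo1 and Tm7sf2 came next with means from 36.5 to 29.9 TPM, each within the SD of its neighbour. Insig1 had 24.8 ± 9.67, Hmgcs1 21.5 ± 7.63, Fdps 15.1 ± 2.45, Fdft1 13.5 ± 9.02 and Acat2 10.6 ± 2.87 TPM, and these neighbours also lay within their spread. Pmvk, Scap, Soat2, Nsdhl and Cyp51 lay from 8.39 down to 4.87 TPM. Srebf2, Stard4, Dhcr7, Mvk, Hsd17b7, Ggps1, Sqle and Mylip lay from 3.25 down to 1.37 TPM. Mvd had 0.96, Lss 0.89 and Idi1 0.04 TPM. The level of Idi1 is uncertain, since how reads of near-identical gene copies were assigned is not stated in the labels. In knockout-labelled mice Insig2 had 150 ± 28.7 and Ebp 108 ± 22.7 TPM (SD, n = 3 each), so these 2 stood in the other order there. By mouse, Insig2 had 182, 138 and 129 TPM and Ebp 131, 106 and 85.8 TPM. The highest values of both, in mouse 1, came from a library run with a different setting for fragment length, described below. The part of that setting in these TPM values was not tested.

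The transcript that carried most counts was the same in all 6 mice for 20 of the 26 genes. The other 6 were Hmgcs1, Pmvk, Msmo1, Tm7sf2, Ebp and Acat2. Hmgcs1-202 held 100% of the Hmgcs1 counts in knockout-labelled mouse 1 and 2.79% to 5.86% in the other mice. That library came from a run with a different setting for fragment length, since its implied fragment length was exactly 250 bases and a transcript of 100 bases had an effective length of 3.50 in place of 100. The part of that setting in the assignment was not tested. Ebp-201 held 32.0%, 80.0% and 69.7% of the gene's counts in controls and 36.2%, 86.5% and 85.8% in knockout-labelled mice, so it was low in mouse 1 of both groups. Ebp-202, listed with a retained intron, held 67.9% in control mouse 1 and 63.6% in knockout-labelled mouse 1. The CPM and TPM of Ebp include these counts. Msmo1-206 held 68.2%, 60.6% and 64.5% in controls and 72.3%, 41.0% and 38.1% in knockout-labelled mice, and its level differed by -1.04 on the log2 scale (SE 0.50, edgeR adjusted p = 0.999). GENCODE lists Msmo1-206 as a processed transcript without a coding sequence, and the protein-coding Msmo1-201 differed by -0.19 (SE 0.56, edgeR adjusted p = 0.999). Most of the gene-level difference of Msmo1 thus lay on counts assigned to the non-coding transcript. Acat2-204 held 93.1%, 64.0% and 76.9% in controls and 27.6%, 60.2% and 47.7% in knockout-labelled mice. The ranges did not overlap for Acat2-204, a gene singled out after its values were seen, and no test of shares was made.

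**Figure D4:**
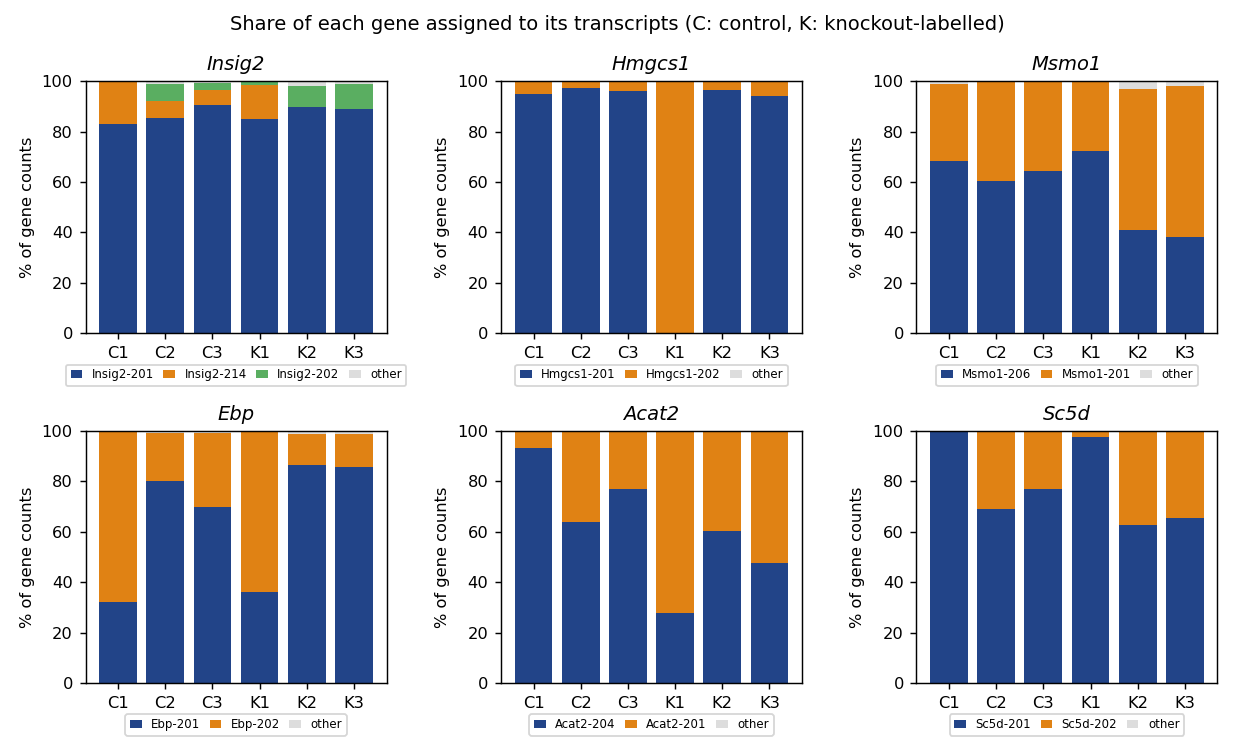
Share of the counts of 6 sterol genes assigned to their leading transcripts and to all others (stacked bars, % of the gene), in each mouse (C1 to C3 control, K1 to K3 knockout-labelled). Insig2-201 holds 82.9% to 90.7% in all 6 mice, whereas Hmgcs1-202 takes 100% in K1 alone.

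Genes around the SREBP2 route gave 0 calls in any list. Of 14 genes of SREBP processing and sterol-driven degradation 11 lay above 0 and 3 below (median 0.14), beside 51.6% of all tested genes above 0. Among its smallest p-values were those of Ube2g2 (0.42), Mbtps1, the site-1 protease (0.23), and Erlin2 (0.22), given as log2 differences, with edgeR adjusted p-values from 0.851 to 0.872. The 14 genes of the isoprenoid branches, which use farnesyl and geranylgeranyl diphosphate, had 5 above 0 and 9 below (median -0.11) and none without overlap. Those with the smallest p were Chm (0.48), Rabggta (-0.30), Icmt (0.34) and Fnta (-0.21).

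Of 15 other SREBP-responsive genes tested, most of them SREBP1 targets of fatty acid synthesis, 12 lay above 0 and 3 below (median 0.40), where 51.6% of all tested genes lay above 0. The groups did not overlap for 3 of them, beside 4.79% of all tested genes without overlap and higher in knockout-labelled mice: Acaca (0.60), Scd1 (1.22) and Fads1 (0.51). Acly (0.44) followed by p. Over the 6 mice their median deviation was -0.15, -0.35 and -0.14 in controls and 0.26, 0.36 and -0.09 in knockout-labelled mice, which is another order of mice than that of the sterol genes. Srebf1 itself measured 74.1, 65.4 and 48.2 CPM in controls and 38.1, 51.2 and 49.9 CPM in knockout-labelled mice (log2 difference -0.43, edgeR adjusted p = 0.845), with overlap. The 13 genes of LXR and its targets, which act when sterols are plentiful, had 7 above 0 and 6 below (median 0.02). With the trend over length and GC content removed, this list turned to 4 above and 9 below. After Scd1 and Srebf1, its smallest p-values were those of Nr1h2 (0.26) and Abcg1 (-0.42). The 15 genes of sterol esters and intracellular transport had 8 above 0 and 7 below (median 0.22), with Vps13c (1.19, overlapping), Osbp (0.34), Soat2 and Lipa (0.44) leading by p. With library totals, where all genes shift up, the isoprenoid list had 13 of 14 genes above 0.

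**Figure D5:**
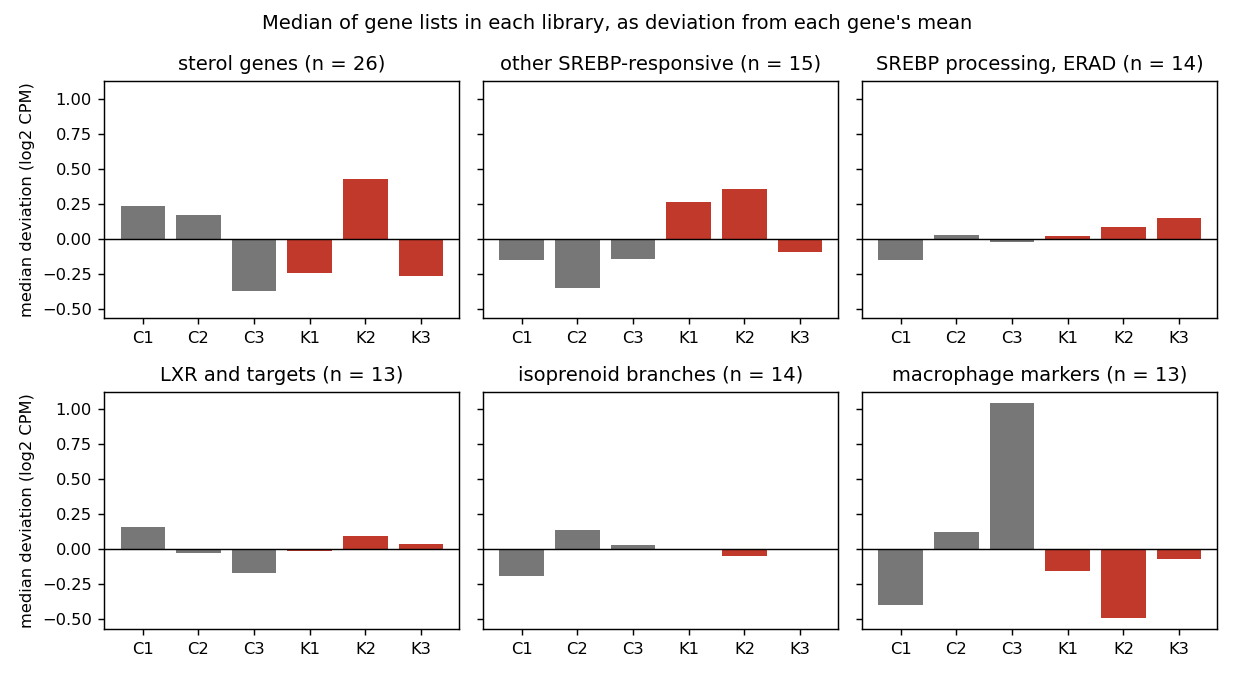
Median over each gene list of the deviation of log2 CPM from each gene's mean, in 6 mice (bars; C1 to C3 control in grey, K1 to K3 knockout-labelled in red), for the sterol genes, 4 related lists and macrophage markers (ERAD, degradation from the endoplasmic reticulum). Sterol genes are high in C1, C2 and K2 (0.23, 0.17 and 0.42) and macrophage markers are highest in C3 (1.05).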

How the data were processed

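Bulk liver RNA was enriched with oligo(dT) beads and sequenced as read pairs, per the labels' protocols. Each deposited file holds the estimated count, TPM, length and effective length of 115221 transcripts, laid out as Salmon writes them, per the file headers. Bowtie2 2.2.5, RSEM 1.2.8, DESeq and GRCm38 are named, with no role, per the submitters' processing notes. The labels name no options or transcriptome. The deposited TPM values were used for levels only, summed per gene. Transcripts were assigned to GENCODE M21 genes (113664 matched, 1557 did not and held 0.216% to 0.268% of counts). Estimated counts were summed over each gene's transcripts and rounded. Totals were 20899135 to 21750007 per library.

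After filterByExpr and TMM scaling, edgeR 4.0.16 (R 4.3.3) gave a two-sided quasi-likelihood p per gene, adjusted by Benjamini-Hochberg over all 12497 tested genes, with 0.05 as the threshold. Each standard error is the size of the log2 difference over the square root of F, and 95% intervals use 4 residual degrees of freedom plus those of the prior. The script was tested on simulated counts. Reads of overlapping genes or of near-identical copies may be split wrongly between them.

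The members, the other gene lists and the tests were chosen with earlier results of these data known. Every sterol gene is named; full values are given for the 8 with the smallest p, those with an absolute log2 difference of at least 0.75 and those whose groups do not overlap, and up to 4 genes by p for each related list. A gene that this rule takes may be left out and is then not reported here. Alternatives were other filters and scalings, then DESeq2 1.42.0, limma 3.58.1 voom with and without sample weights, an effective length offset, removal of the trend over length and GC content (loess, span 0.5), transcripts instead of genes, a block for the replicate number, and each library left out. Markers of other cell types were checked as lists: lipid-associated macrophages (0 of 8 above 0), endothelial cells (5 of 8), stellate cells and fibroblasts (4 of 8), cholangiocytes (1 of 5), lymphocytes (4 of 7), neutrophils (0 of 3), red blood cells (0 of 5), adipocytes (2 of 3) and pancreatic acinar cells (0 of 1, with 4 of 7 listed at 0 throughout).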

Additional observations from a re-analysis of the deposited data

How the results depend on the processing

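With 3 mice a group, no sterol gene passed the edgeR threshold of 0.05, nor that of any of the 20 alternatives. Over all genes edgeR called 0, with 568 at an unadjusted p under 0.05, DESeq2 called 11, and leaving out 1 library gave 0 to 3 calls (3 without knockout-labelled replicate 1). Fdft1, Ggps1, Insig2, Msmo1, Mylip, Soat2 and Tmem97 kept their direction in all 20 alternatives and the other 19 tested genes did not. With 1 library left out Msmo1 ran from -1.12 to -0.41, Soat2 from 0.20 to 0.69, Mylip from 0.14 to 0.92, Ggps1 from 0.27 to 0.52, Tmem97 from -0.49 to -0.23, Fdft1 from -1.88 to -0.06, Cyp51 from -0.87 to -0.03 and Ebp from -0.37 to -0.11. The median of the sterol genes changed sign in 6 of 20 and ran from -0.33 to 0.11 with 1 library left out. Deviations from the group mean correlated at 0.195, 0.275 and -0.145 between same-numbered mice. Between mice of different number they correlated at -0.427 to 0.336. Some transcript shares were alike in mouse 1 of both groups. Sc5d-202 held 0% and 2.39% there, against 23.2% to 37.3% in the other mice. Pmvk-204 held 58.7% and 40.4%, against 0% to 8.66%. Others were not alike, as Acat2-204 held 93.1% in control mouse 1 and 27.6% in knockout-labelled mouse 1. These genes were picked after their values were seen. With 3 mice a group these values cannot settle whether the numbers mark pairs or batches. With the replicate block 0 genes were called, the median was -0.13 and Insig2 differed by 0.80. The cause of the changes below was not tested.

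The following log2 differences took the other sign. With library totals they were Hmgcs1 0.036, Sqle 0.10, Insig1 0.046, Fdps 0.16, Mvd 0.0402, Mvk 0.053, Sc5d 0.14, Hsd17b7 0.20, Tm7sf2 0.23, Ebp 0.005 and Acat2 0.19. The voom sample weights were 0.449, 0.978 and 1.48 in controls and 0.404, 2.75 and 1.39 in knockout-labelled mice, with the largest on knockout-labelled mouse 2. With voom sample weights the median was 0.30, and the genes were Hmgcs1 0.21, Sqle 0.57, Insig1 0.22, Fdps 0.12, Cyp51 0.018, Mvd 0.39, Mvk 0.19, Sc5d 0.024, Hsd17b7 0.23, Tm7sf2 0.37 and Stard4 0.038. With plain voom they were Tm7sf2 0.0695, with the effective length offset Sc5d 0.053, and with the replicate block Tm7sf2 0.069. With the length and GC trend removed they were Srebf2 -0.035, Fdps 0.11, Lss -0.11, Dhcr7 -0.015 and Tm7sf2 0.093, and with the replicate block as well Srebf2 -0.038, Fdps 0.046, Lss -0.081 and Tm7sf2 0.24. With transcripts in place of genes they were Lss -0.51 (Lss-204, with a retained intron) and Tm7sf2 0.16. With 1 library left out the differences ran as follows: Hmgcs1 -0.52 to 0.11, Sqle -0.98 to 0.36, Insig1 -0.71 to 0.11, Mvd -0.69 to 0.29, Hsd17b7 -0.34 to 0.15, Fdps -0.54 to 0.13, Dhcr7 -0.15 to 0.41, Tm7sf2 -0.41 to 0.42, Stard4 -0.88 to 0.061, Srebf2 -0.049 to 0.47, Scap -0.12 to 0.46, Lss -0.36 to 0.46, Nsdhl -0.12 to 0.53, Acat2 -0.15 to 0.0903, Mvk -0.72 to 0.014, Sc5d -0.33 to 0.018, Pmvk -0.051 to 0.56.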
